A study of Mus musculus with 44 samples.

Results

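TGF-beta signalling in mouse microglia was examined through 10 genes: the ligands Tgfb1 and Tgfb2, the receptors Tgfbr1 and Tgfbr2, the latency and activation genes Nrros, Itgav and Itgb8, and the transducers and feedback inhibitor Smad2, Smad3 and Smad7. They were chosen by symbol, with no measured value in the rule, and all 10 were found among the 50714 gene identifiers that the count tables share. The series holds 44 RNA libraries made from the dorsal cortex with the hippocampus, taken from mice killed between postnatal days 28 and 29. All mice, controls included, were labelled CX3CR1-CreERT2 (+/-) and RPL10a-GFP flox (+/-); the series text writes fl/fl for the second allele. In this system a Cre recombinase that tamoxifen activates is expressed from the Cx3cr1 promoter, which is active in microglia and other brain macrophages, and it switches on a GFP-tagged ribosomal protein. Tamoxifen (100 mg per kg) was injected on days 15, 17 and 19 after birth, and controls received the oil and ethanol vehicle per the labels or are called untreated in the series text. Each replicate letter had 4 libraries: Input, the RNA of the whole homogenate; MG_TRAP, the RNA bound to tagged ribosomes pulled down from it; SN_input, RNA from synaptosomes, a fraction of detached synapses with the cell processes that cling to them; and PeMP_TRAP, the tagged-ribosome RNA of that fraction (labelled SN_TRAP in the second set). Control libraries were A to C (n = 3 per fraction) and tamoxifen libraries D to K (n = 8 per fraction). The first set (24 libraries) covers letters A to F, the second (20 libraries) letters G to K, and controls occur in the first only. Nothing states that a letter is 1 animal or whether animals were pooled, so p-values measure the spread between these libraries, part of which may be technical.

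TGF-beta is made as a latent complex: the mature cytokine stays wrapped in its own propeptide, which is tethered to a carrier protein and must be opened before the cytokine can bind. On microglia the carrier is NRROS (also called LRRC33), and the integrin formed by the alpha-v and beta-8 subunits opens the complex. Free TGF-beta binds the receptor TGFBR2, which recruits and phosphorylates TGFBR1, which phosphorylates SMAD2 and SMAD3; these enter the nucleus with SMAD4, and SMAD7 is induced as a feedback inhibitor of the receptor. In the mouse brain this pathway is known to be needed for the mature microglial expression programme, to which Tmem119, P2ry12 and Sall1 belong.

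Libraries held 746616 to 35584637 assigned reads. Values per library are read counts and normalized CPM, a library's counts rescaled to a common total with TMM factors over all libraries; a count of 3, the limit that a count of 0 allows, was worth 0.0793 to 4.9 CPM, and covers counting error only. A list of 12 microglial markers summed to 166 to 265 CPM in tamoxifen Input and 12300 to 42999 in tamoxifen MG_TRAP, all 12 rose between them, and in control MG_TRAP the sum was 2290 to 5185, above the 308 to 372 of control Input. Border macrophage markers (6 genes) summed to 39.6 to 263 CPM in tamoxifen MG_TRAP against 1.18 to 18.1 in tamoxifen Input, and a list of 5 B and plasma cell genes to 31.6 to 656 against 0.285 to 1.93; Cd163 was at 0 in the first-set tamoxifen and Lyve1 in the control MG_TRAP libraries. Neuronal markers (8 genes) summed to 1072 to 4309 CPM in tamoxifen MG_TRAP against 6343 to 8075 in tamoxifen Input. Oligodendrocyte and precursor markers (8 genes) summed to 489 to 1690 CPM in first-set tamoxifen MG_TRAP against 2915 to 5338 in first-set tamoxifen Input. In the second set these sums were 1243.5 to 10380 against 4030 to 4895 CPM. Second-set PeMP_TRAP libraries stood apart: they held 20442643 to 35584637 reads, yet only 29.7% to 42.1% of the 15710 genes tested had more than 3 counts in them, against 72.5% to 88.0% in second-set MG_TRAP. Values in them that are high in 1 library and 0 in the next recur below. In bulk RNA, fewer cells of a type and less RNA per cell cannot be told apart.

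After tamoxifen, 3 of the 10 genes rose in MG_TRAP over Input: Tgfb1, Tgfbr1 and Tgfbr2, the microglial ligand and its receptor pair. They passed edgeR's quasi-likelihood test at an adjusted p of 0.05, as did 4.67% of all genes in that direction. A further member, Nrros, was higher in every MG_TRAP library than in any Input library but did not pass (adjusted p = 0.106). The same 3 genes rose in PeMP_TRAP over SN_input, where 6.15% of all genes rose, but there the libraries of the 2 fractions overlapped. In that comparison all 12 microglial markers rose, and 4 of the 5 B and plasma cell genes did while the fifth fell: these summed to 9.51 to 3992 CPM in first-set and 957 to 2411 in second-set tamoxifen PeMP_TRAP, against 0 to 12.4 in tamoxifen SN_input. Of the 6 border macrophage markers none rose and 2 fell. The part of these cells in the members' rise was not tested. The other 6 members did not pass in either enrichment. The 10 genes' median log2 fold change was 1.18 in MG_TRAP over Input, where all genes tested had a median of -0.14, and -0.17 in PeMP_TRAP over SN_input, where all genes had -0.75.

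**Figure D1:**
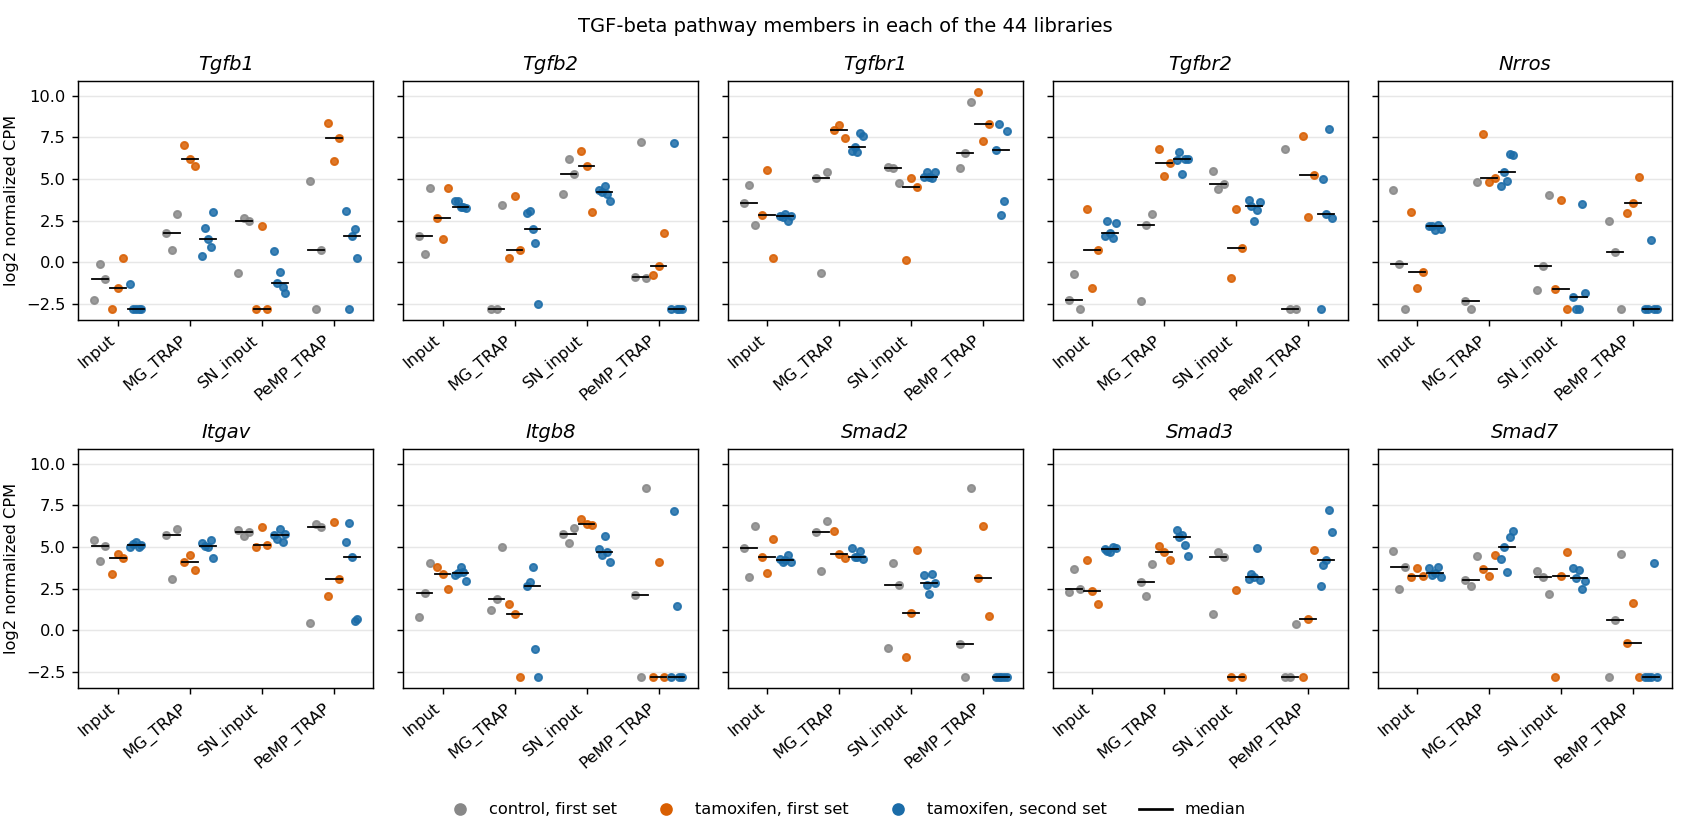
Each panel shows 1 gene; the x axis gives the 4 fractions, the y axis log2 normalized CPM, and each point is 1 of the 44 libraries, coloured by treatment and set, with a black bar at the median of each group. Tgfb1, Tgfbr1, Tgfbr2 and Nrros sit higher in the 8 tamoxifen MG_TRAP libraries than in any tamoxifen Input library, and points at the bottom edge are libraries with a count of 0.

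The 4 genes whose MG_TRAP and Input libraries did not overlap are the ones whose promoters are printed here, as the 250 bases before the RefSeq start on build GRCm38.p6, in the direction of the gene. Capitals mark the purine-rich GAGGAA, the core of the site bound by the macrophage factor PU.1, searched on both strands (GAGGAA or TTCCTC).
Tgfb1, chr7:25686752-25687001, plus strand: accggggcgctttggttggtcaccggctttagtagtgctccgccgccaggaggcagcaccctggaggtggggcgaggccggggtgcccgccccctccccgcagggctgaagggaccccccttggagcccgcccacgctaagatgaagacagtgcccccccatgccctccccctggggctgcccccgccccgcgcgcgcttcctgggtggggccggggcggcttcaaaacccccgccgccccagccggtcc
Tgfbr1, chr4:47352972-47353221, plus strand: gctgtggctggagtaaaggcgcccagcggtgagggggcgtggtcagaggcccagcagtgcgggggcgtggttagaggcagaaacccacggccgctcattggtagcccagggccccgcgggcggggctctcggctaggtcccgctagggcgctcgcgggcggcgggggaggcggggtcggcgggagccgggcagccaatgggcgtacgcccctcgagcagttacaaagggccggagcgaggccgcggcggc
Tgfbr2, chr9:116175364-116175613, minus strand: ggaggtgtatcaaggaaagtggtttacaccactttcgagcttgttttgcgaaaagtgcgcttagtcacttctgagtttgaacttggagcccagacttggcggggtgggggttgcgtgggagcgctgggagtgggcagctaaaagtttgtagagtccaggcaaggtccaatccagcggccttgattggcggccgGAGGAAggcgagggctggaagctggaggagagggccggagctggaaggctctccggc
Nrros, chr16:32165595-32165844, minus strand: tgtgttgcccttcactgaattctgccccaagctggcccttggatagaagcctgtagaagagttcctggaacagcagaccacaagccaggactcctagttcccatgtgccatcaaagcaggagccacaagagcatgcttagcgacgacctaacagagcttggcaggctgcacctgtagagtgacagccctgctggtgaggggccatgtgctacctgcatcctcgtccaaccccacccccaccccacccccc
Of these, the Tgfbr2 promoter holds 1 match and the other 3 hold none, while 23.3% of all 32851 RefSeq windows of that length hold at least 1. Among the members not printed that have a window, Itgav holds 1 GAGGAA and 1 TTCCTC and Tgfb2 holds 1 TTCCTC. The windows of Itgb8 and Smad3 hold none. The Tgfb1 and Tgfbr1 windows are 75.2% and 74.8% G or C, and those of Tgfbr2 and Nrros 58.4% each, against a median of 52.4% over all windows. A match is a description of letters, and its absence says only that those letters are not in the window.

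Tgfb1 (ENSMUSG00000002603, chr7:25687002-25705077, GRCm38, plus strand, protein-coding) encodes the TGF-beta isoform that microglia themselves produce. In tamoxifen Input the counts were 0, 1 and 4 in libraries D to F and 8, 0, 0, 0 and 0 in G to K. In MG_TRAP they were 1857, 317 and 143 in D to F, or 132, 73.7 and 55.2 CPM, and 21, 148, 52, 66 and 259 in G to K, or 1.14 to 7.82 CPM. Tgfb1 was thus near absent from the homogenate libraries and present in all 8 immunoprecipitates, with the 3 of the first set above the 5 of the second. The microglial marker sum was also higher in first-set MG_TRAP (33730 to 42999 CPM) than in second-set MG_TRAP (12300 to 21040), and its part in the difference between sets was not tested. The log2 fold change over Input was 6.53 (SE 1.39, adjusted p = 0.00141).

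In the synaptosome fraction, Tgfb1 had 0 to 4.46 CPM in SN_input, median 0.250, with more than 3 counts in 3 of 8 libraries. PeMP_TRAP had 330, 67.3 and 175 CPM in D to F and 8.49, 0, 2.83, 3.83 and 1.07 in G to K. The 3 first-set libraries and G were above every SN_input library, while H to K lay within the SN_input range, so the groups overlapped. The rise was 4.2 on the log2 scale (SE 1.31, adjusted p = 0.0123); in the first set alone it was 6.97 (adjusted p = 0.0290) and in the second alone 2.55 (adjusted p = 0.147).

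Tgfb2 (ENSMUSG00000039239, chr1:186622792-186705989, minus strand), a ligand that astrocytes and neurons are known to make, had the opposite arrangement, without passing in the main fit. It had 2.52 to 22.0 CPM in tamoxifen Input (median 9.85) and 0.0302 to 15.6 in MG_TRAP (median 2.99), a log2 fold change of -1.05 (SE 1.32, adjusted p = 0.814). SN_input held 7.88 to 101 CPM, median 19.4. In PeMP_TRAP 7 of 8 libraries had 0 to 2 counts and library H had 2754, or 141 CPM. With H the log2 fold change was -0.79 over SN_input (adjusted p = 0.723) and 1.89 over MG_TRAP (adjusted p = 0.381). With H kept and the letter as a block, Tgfb2 passed as lower than SN_input (-5.66, adjusted p = 0.037). Without H, Tgfb2 passed as lower in both comparisons (adjusted p = 0.00187 and 0.0315). As the 7 remaining PeMP_TRAP libraries had at most 2 reads, the size is given only as a bound: at least 6.93-fold lower than SN_input against the highest limit of 3 counts per library, 4.9 CPM, while the MG_TRAP mean of 4.54 CPM was under that limit and gives no fold. Without strand information in the sources, 124 exon bases shared with the antisense gene Gm29491 cannot be assigned to either.

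Of the 2 receptors, Tgfbr1 was the member with the highest level per length in MG_TRAP, as given further on. Tgfbr1 (ENSMUSG00000007613, chr4:47353222-47414931, plus strand), the signalling kinase of the pair, had 1.03 to 46.4 CPM in tamoxifen Input, median 6.66. In MG_TRAP it had 99.5 to 303 CPM, median 184, on 455 to 8216 reads. Every MG_TRAP library was above every Input library, and the 2 sets overlapped within MG_TRAP. The rise was 4.23 on the log2 scale (SE 0.79, adjusted p = 0.000259).

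Tgfbr1 was the member with more than 3 counts in every tamoxifen library of all 4 fractions, a property it shared with Itgav alone. SN_input had 0.949 to 43.4 CPM, median 34.3, of which library D at 0.949 was far below the next at 23.1. PeMP_TRAP had 1205, 158 and 312 CPM in D to F and 108, 311, 7.16, 12.9 and 240 in G to K. Libraries I and J lay below every SN_input library but D, so the groups overlapped. The rise over SN_input was 2.82 (SE 0.76, adjusted p = 0.00431), 4.84 in the first set alone (adjusted p = 0.0341) and 1.74 in the second alone (adjusted p = 0.0562).

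Tgfbr2 (ENSMUSG00000032440, chr9:116084293-116175360, minus strand), which binds the cytokine first, had 0.194 to 9.13 CPM in tamoxifen Input, median 3.05. In MG_TRAP it had 35.6 to 111 CPM, median 70.9. The groups did not overlap, and the rise of 4.26 (SE 1.07, adjusted p = 0.00727) was close to that of Tgfbr1. Neither set alone passed for Tgfbr2: the fold change was 4.28 in the first (adjusted p = 0.217) and 4.25 in the second (adjusted p = 0.0596).

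In SN_input Tgfbr2 had 0.379 to 13 CPM, median 8.82, and in PeMP_TRAP 0 to 253, median 19.3. The highest of these was library J, with 5348 reads, and library G had none. The rise over SN_input was 3.19 (SE 1.03, adjusted p = 0.0153), and it did not pass without library J (2.23, adjusted p = 0.161) or without library D (2.45, adjusted p = 0.0528). It did not pass in the first set alone (4.37, adjusted p = 0.138), in the second alone (2.41, adjusted p = 0.118) or with the letter as a block (2.10, adjusted p = 0.172).

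Nrros (ENSMUSG00000052384, chr16:32142785-32165594, minus strand) encodes the carrier that presents latent TGF-beta on microglia. It had 0.194 to 7.99 CPM in tamoxifen Input (median 4.08) and 23.9 to 212 in MG_TRAP (median 38.4). The groups did not overlap, as was so for 5.46% of all genes in that direction and for 4 of the 10 members. The log2 fold change of 3.97 had an SE of 1.46 and an adjusted p of 0.106; DESeq2 called it (3.47, adjusted p = 0.0382). In the synaptosome fraction Nrros was sparse: more than 3 counts were found in 2 of 8 SN_input libraries and 4 of 8 PeMP_TRAP libraries. The PeMP_TRAP counts were 34, 16 and 21 in D to F and 0, 0, 66, 0 and 0 in G to K, and the log2 fold change over SN_input was 0.29 (SE 1.51, adjusted p = 0.915).

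The integrin subunits Itgav and Itgb8 did not pass as higher in the immunoprecipitates. Itgav (ENSMUSG00000027087, chr2:83724397-83806916, plus strand), the alpha-v subunit, had 10.4 to 38.5 CPM in tamoxifen Input (median 32.1) and 12.3 to 43.1 in MG_TRAP (median 27.2). The log2 fold change was -0.02 with a 95% interval of -1.5 to 1.46. Over SN_input, PeMP_TRAP differed by -0.62 (SE 0.76, adjusted p = 0.578). Itgav shares 634 exon bases with the antisense gene Gm13684.

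Itgb8 (ENSMUSG00000025321, chr12:119158022-119238802, minus strand), the beta-8 subunit that other glia and neurons are known to display, had 5.43 to 14 CPM in tamoxifen Input (median 10.3). MG_TRAP had 0 to 13.8 (median 2.36), with 0 reads in libraries F and K, and the log2 fold change of -1.40 did not pass (SE 1.34, adjusted p = 0.721). SN_input had 16.6 to 102 CPM, above every Input library, but the log2 fold change of 2.50 (SE 1.39) had an adjusted p of 0.551. No member passed in SN_input over Input, where 2.55% of all genes did; Itgb8 was the only member whose groups did not overlap upward, as were 2.66% of all genes. Unadjusted, 2 members were under 0.05 there, Tgfb1 (2.99, SE 1.20) and Tgfbr1 (1.89, SE 0.73), and DESeq2 called none of the other 9 members, giving no adjusted p for Itgb8. In PeMP_TRAP Itgb8 had 0 reads in 5 of 8 libraries and 2829 in library H, which held the single high Tgfb2 count as well. Without H its log2 fold change over SN_input moved from -1.57 (adjusted p = 0.437) to -4.50 (adjusted p = 0.0269). With H kept and the letter as a block it was -5.08 (adjusted p = 0.0489).

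The Smad genes showed no enrichment that passed. Smad2 (ENSMUSG00000024563), a receptor substrate, had 10.9 to 44.7 CPM in tamoxifen Input (median 19) and 18.9 to 62.2 in MG_TRAP (median 22.3), a log2 fold change of 0.40 (SE 1.20, adjusted p = 0.936). Smad3 (ENSMUSG00000032402, chr9:63646767-63757994, minus strand), the second substrate, had 2.84 to 31.7 CPM (median 26.0) and 18.5 to 64.1 (median 33.2), a log2 fold change of 1.12 (SE 0.94, adjusted p = 0.664). Smad7 (ENSMUSG00000025880), the inhibitor, had 9.00 to 13.6 CPM (median 10.2) and 9.53 to 61.9 (median 20.7), a log2 fold change of 1.25 (SE 1.18, adjusted p = 0.716). The homogenate and immunoprecipitate libraries of all 3 genes overlapped.

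In the synaptosome fraction no Smad passed either. Smad3 had 0 to 30.6 CPM in SN_input (median 8.11) and 0 to 152 in PeMP_TRAP (median 16.6); the log2 fold change of 2.07 had an SE of 0.97 and an adjusted p of 0.0987, and DESeq2 called it (1.91, adjusted p = 0.0399). Smad7 had 0 to 25.9 CPM in SN_input (median 9.11), while its PeMP_TRAP counts were 2, 4 and 0 in D to F and 0, 0, 0, 340 and 0 in G to K, a log2 fold change of -2.16 (SE 1.23, adjusted p = 0.181). Without library J, the one with 340, it was -5.38 (adjusted p = 0.00861).

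Smad2 differed between the sets. Its PeMP_TRAP counts were 39, 103 and 1 in D to F and 0 in all 5 of G to K, whose SN_input libraries held 53 to 102 reads. In the second set PeMP_TRAP was therefore at least 49.0-fold lower than SN_input, measured against the highest limit per library of 3 counts, and at least 153-fold lower than MG_TRAP. In the first set alone the log2 fold change over SN_input was 1.56 (adjusted p = 0.589). The test of the difference between sets in this enrichment passed for Smad2 (adjusted p = 0.00124), the only member to pass it in either direction, as did 13.8% of all genes downward. In the homogenate the same test called 0% of genes and no member with edgeR, with 989 genes and 0 members at an unadjusted p under 0.05; DESeq2 called 441 genes and 0 members. The sets differ in several ways at once, and which of them goes with the zeros was not tested.

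**Figure D2:**
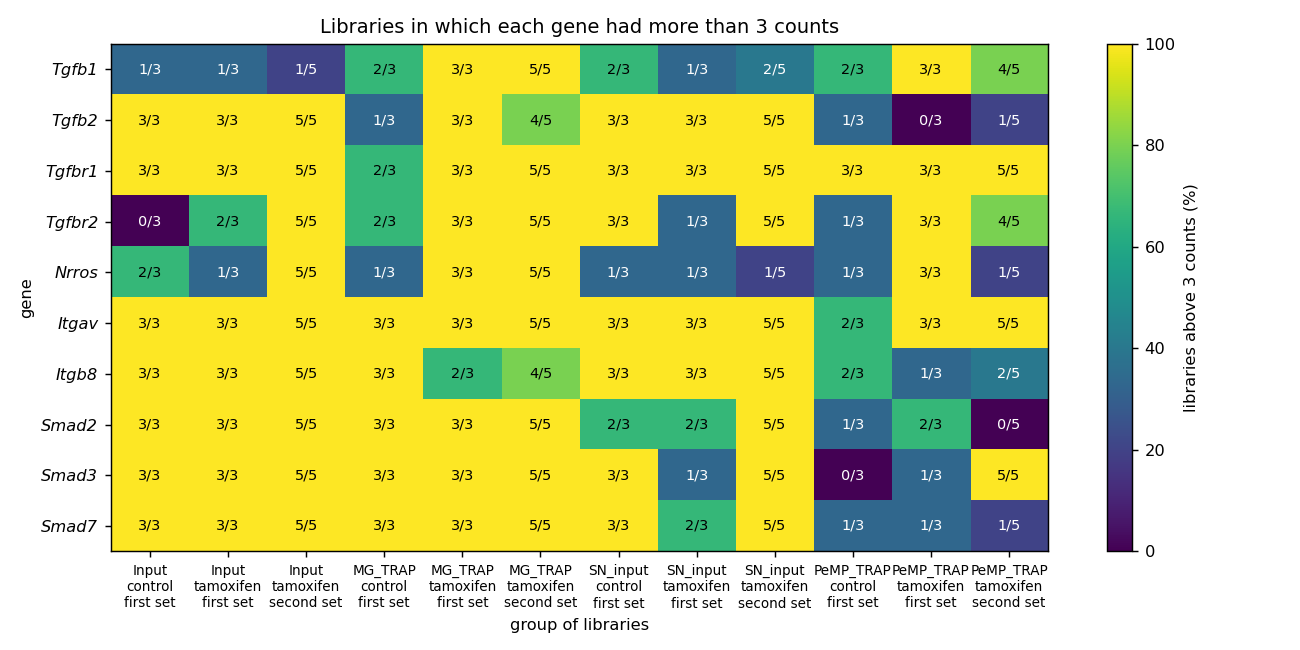
The heat map gives, for each gene (rows) and each group of libraries (columns), how many libraries had more than 3 counts, with the share as colour. The control and second-set PeMP_TRAP columns have the largest shares of gaps: 16 of 30 values are not above 3 counts in the control libraries (53.3%) and 22 of 50 in the second set (44%), where Smad2 is above 3 counts in 0 of 5 libraries and Tgfbr1, Itgav and Smad3 in 5 of 5.

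**Figure D3:**
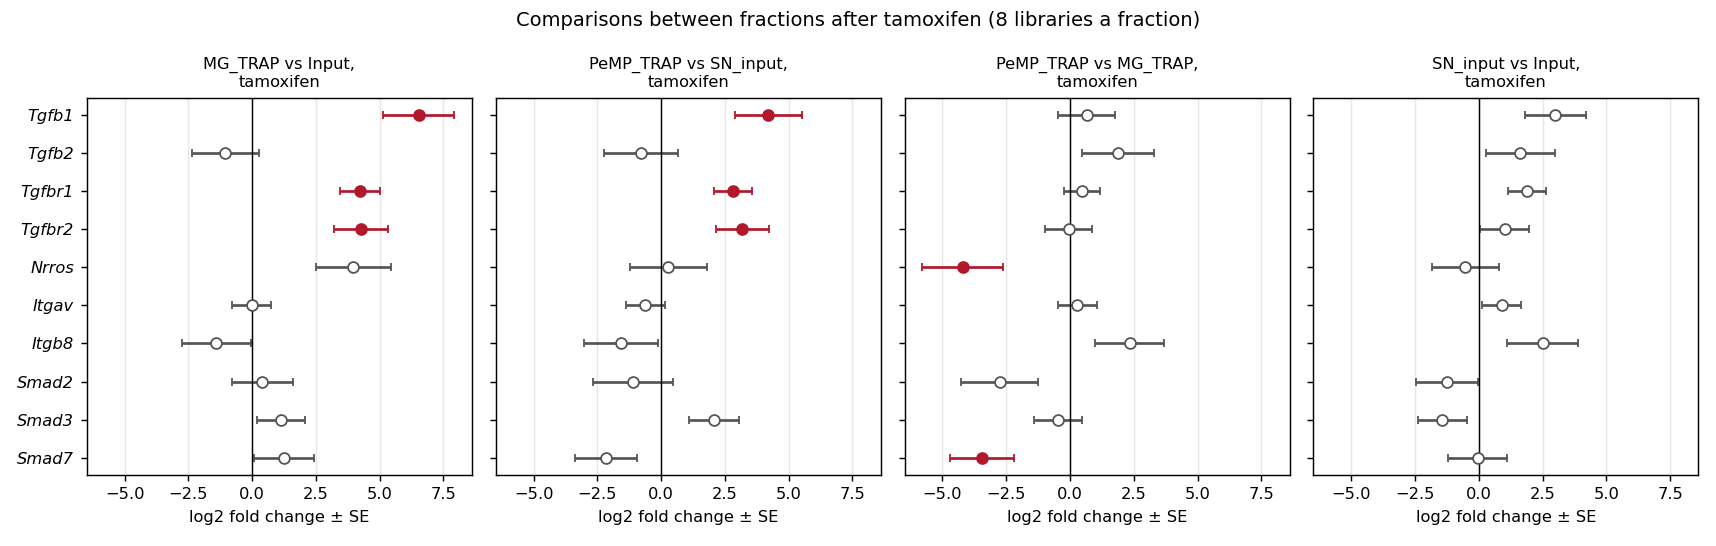
Log2 fold changes with their standard errors are shown for the 10 genes (rows) in 4 comparisons between fractions of tamoxifen mice (panels); filled red points passed at an adjusted p of 0.05. Tgfb1, Tgfbr1 and Tgfbr2 passed in the first 2 panels, Nrros and Smad7 were lower in the third, and none passed in the fourth.

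Between the 2 immunoprecipitates, Nrros and Smad7 were lower in PeMP_TRAP than in MG_TRAP, the carrier by 4.21 on the log2 scale (SE 1.59, adjusted p = 0.0468) and the inhibitor by 3.45 (SE 1.27, adjusted p = 0.0411). In that direction 22% of all genes passed, so 2 of 10 members is close to the background. Both calls were near the threshold: each was lost in 5 of the 8 fits that left out 1 letter (adjusted p up to 0.106 for Nrros, without D, and up to 0.107 for Smad7, without K). DESeq2 called both and Smad2 as well, also lower (-3.61, adjusted p = 0.00283), where it called 4699 of 14806 genes lower. With edgeR Smad2 passed without E (adjusted p = 0.00254) and in the second set alone. The receptors differed little: Tgfbr1 had a log2 fold change of 0.48 (95% interval -0.89 to 1.85) and Tgfbr2 of -0.06 (-1.89 to 1.78), and Tgfb1 of 0.66 (-1.52 to 2.83). These intervals do not show that the levels were alike. In the main fit the enrichment over the matching input was not shown to differ between the fractions for any member. There 11.3% of all genes passed and 0 members did with edgeR, 1 member (Smad7, -3.41, SE 1.68) was under 0.05 unadjusted, and DESeq2 called 0 members, giving no adjusted p for Itgb8. In the second set alone Smad2 (adjusted p = 5.4e-07) and Tgfbr1 (adjusted p = 0.0408) passed as lower with edgeR, as did 4508 of 15617 genes. Smad7 passed as lower without J (adjusted p = 0.0303).

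The control libraries, all of the first set, show what is pulled down without tamoxifen. Control MG_TRAP already held Tgfb1: its counts were 56, 3 and 110 in A to C, or 3.23, 1.52 and 7.43 CPM, against 0.0677, 0.800 and 0.355 CPM in control Input. The groups did not overlap, as was so for 5.84% of all genes upward. The log2 fold change of 3.46 (SE 1.81) had an adjusted p of 0.717. Tgfbr1 was uneven, with 33.2, 0.508 and 41.9 CPM in control MG_TRAP against 11.6, 25.1 and 4.62 in control Input. Tgfbr2 had 1, 9 and 109 reads in control MG_TRAP and 1, 3 and 0 in control Input. Its mean was at least 7.5-fold higher against the highest limit of 3 counts, a bound that leaves out the counting error of the Input reads. Library C held 61.4% of the summed CPM, and the bound was 4.34-fold without it. With edgeR 0 members passed in control MG_TRAP over Input, where 0.0135% of all genes did; 1 member, Tgfbr2, was under 0.05 unadjusted, and DESeq2 called 0.

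Control PeMP_TRAP was dominated by single libraries. Tgfbr1 had 50.5, 93.0 and 800 CPM there against 52.3, 51.3 and 27.4 in control SN_input. Smad2 had 1, 0 and 997 reads and Itgb8 10, 0 and 999, library C holding nearly all of both. Smad3 had 0, 0 and 3 reads against 11, 70 and 220 in control SN_input, at least 3.87-fold lower. Over SN_input edgeR called 0 members and 0% of all genes, 3 members (Smad2, Smad3, Tgfbr1) were under 0.05 unadjusted, and DESeq2 called 0 members. Endothelial and mural markers (7 genes) summed to 1164 to 5265 CPM in these 3 libraries against 31.9 to 64.2 in control SN_input; their part in the values was not tested.

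Tamoxifen against control within MG_TRAP, 3 libraries against 3, gave 5 members whose groups did not overlap, all higher after tamoxifen: Tgfb1, Tgfbr1, Tgfbr2, Nrros and Smad3. Over all genes 15.3% did so. Tgfb1 had 132, 73.7 and 55.2 CPM after tamoxifen against the 1.52 to 7.43 given above, a log2 fold change of 4.16 (SE 1.83, adjusted p = 0.264). Tgfbr1 had 245, 303 and 175 against 0.508 to 41.9 (3.02, SE 1.30, adjusted p = 0.258). Every tamoxifen library thus held several times more of either than the highest control.

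Tgfbr2 had 111, 35.6 and 63.3 CPM against 0.0578, 4.57 and 7.36 (3.91, SE 1.99, adjusted p = 0.324), and Nrros 212, 28.4 and 33.6 against 0.0578, 0 and 27.6 (3.01, SE 2.23, adjusted p = 0.531). For Nrros the lowest tamoxifen and the highest control library were nearly level. Smad3 had 32.6, 26.0 and 18.5 against 7.39, 4.06 and 15.7. With edgeR 0 members passed, and 0% of all genes; unadjusted, 2 members and 2351 genes were under 0.05, and DESeq2 called 1 member, Tgfb1 (4.54, adjusted p = 0.0416), among 875 genes. The microglial marker sum moved with these values, 33730 to 42999 CPM against 2290 to 5185. So did the sums of border macrophage markers (118 to 263 against 0 to 7.43) and of B and plasma cell genes (31.6 to 656 against 0.508 to 6.35), while the neuronal sum was lower (1072 to 1827 against 6049 to 8739). The part of these cells in the values was not tested.

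Within PeMP_TRAP the same comparison called 0 members with edgeR while 11.1% of all genes passed. Tgfb1 (330, 67.3 and 175 CPM against 29.9, 0 and 1.52) and Nrros (7.64, 11.7 and 34.3 against 5.33, 1.39 and 0) did not overlap upward, as was so for 12.2% of all genes. Tgfb1 had a log2 fold change of 3.56 (SE 1.78, adjusted p = 0.161). Without control library A it passed (7.66, adjusted p = 0.0386), as did Tgfbr2 (adjusted p = 0.0344), whose control reads were 277, 0 and 0. Tgfb2 and Itgb8 were under 0.05 unadjusted, and DESeq2 called both lower, as it did 2179 of 12610 genes. Each of these 2 values rests on 1 control library, B with 107 Tgfb2 reads and C with 999 Itgb8 reads. With edgeR Itgb8 passed without E (adjusted p = 0.0315). Of the 12 microglial markers 7 rose in this comparison, with sums from 30223 CPM upward after tamoxifen and 477 to 14131 in controls. Of the 7 endothelial and mural markers 4 fell, with sums of 16.8 to 1015 against 1164 to 5265, and 2 of 3 tested B and plasma cell genes rose. The part of these cells was not tested.

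In the inputs tamoxifen moved no member past the threshold. For Input and for SN_input edgeR called 0 members and 0% of all genes; unadjusted, 1 member (Tgfbr2, in Input) and 452 genes were under 0.05 in Input and 0 members and 495 genes in SN_input, and DESeq2 called 0 members in either. In SN_input 2 members did not overlap. Tgfbr2 had 0.379, 8.92 and 1.69 CPM after tamoxifen against 45.1, 21.1 and 26.4 in controls (-3.07, SE 1.93), lower in every library, as were 6.63% of all genes. Itgb8 had 102, 84.1 and 80.5 CPM against 53.8, 38.2 and 69.9 (0.73, SE 1.66), higher in every library, as were 3.57% of all genes. The interaction of treatment with enrichment called 0 members and 0% of all genes in the homogenate (0 members and 1357 genes unadjusted; DESeq2 0 members and 203 genes). In the synaptosome fraction it called 0 members and 1.24% of all genes, and Itgb8, Smad3 and Tgfb1 were under 0.05 unadjusted. Of the members DESeq2 called Smad3 alone (adjusted p = 0.0273), among 1826 of 13127 genes. Control PeMP_TRAP held Smad3 at 0 to 3 reads.

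**Figure D4:**
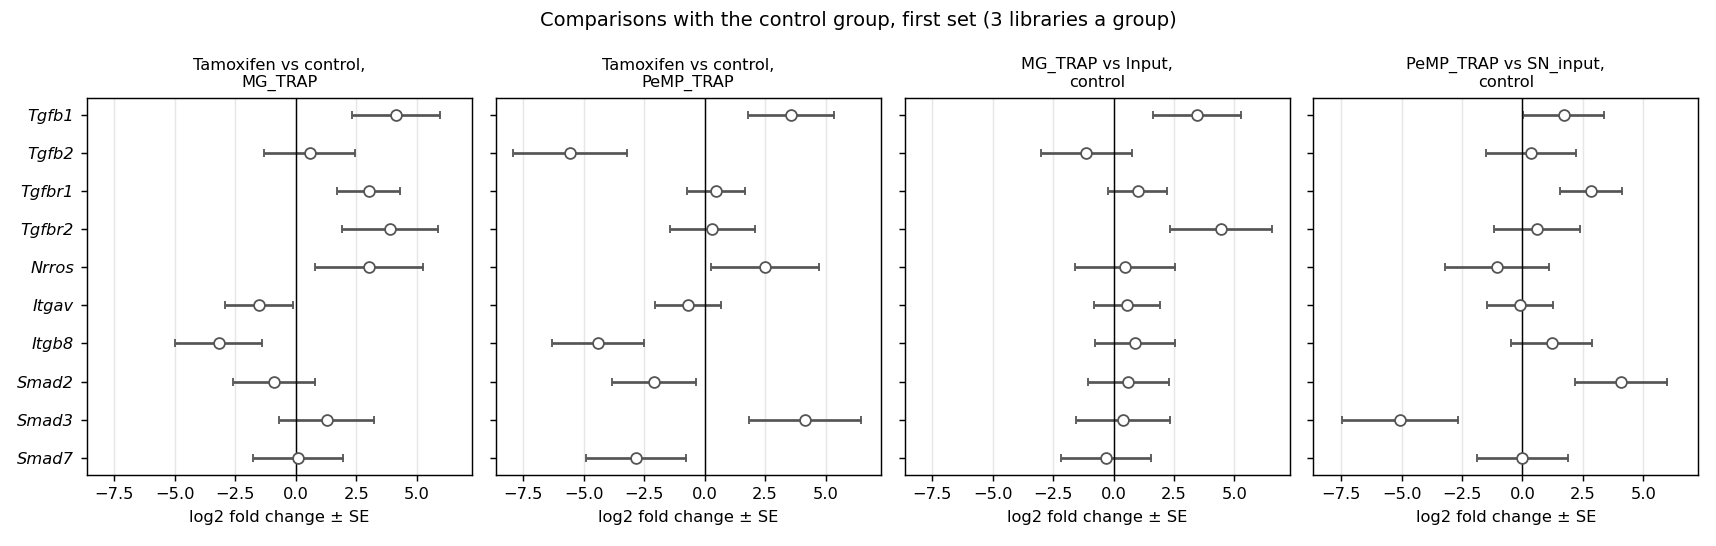
Log2 fold changes with standard errors are shown for the 10 genes (rows) in 4 comparisons that use the control libraries (panels, 3 libraries a group); no point is filled because none passed at an adjusted p of 0.05. Error bars are wider than in the tamoxifen comparisons, and the standard error of Tgfb1 in MG_TRAP was 1.83 here against 1.39 there.

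Per length of exon (CPM per kilobase), the order of levels over the 8 tamoxifen MG_TRAP libraries of both sets was Tgfbr1 with a median of 28.1, Nrros 9.19, Tgfbr2 8.65, Smad3 6, Smad7 4.58, Smad2 2.54, Itgav 2.53, Tgfb1 1.17, Tgfb2 0.517 and Itgb8 0.213. Each gene's range over the 8 libraries overlapped that of its neighbours in the order. In tamoxifen Input the order began with Smad3 at 4.69 and Itgav at 2.98 and ended with Tgfbr2 at 0.373 and Tgfb1 at 0. The receptor kinase Tgfbr1 stood in the sixth place there at 1.02. In SN_input Tgfbr1 (5.26), Itgav (4.49), Itgb8 (3.64) and Tgfb2 (3.36) led, and in PeMP_TRAP Tgfbr1 led at 30.5, with Smad3 next at 2.99. Neighbours overlapped in every one of these orders. The order differed between the sets: Tgfbr1 led MG_TRAP and PeMP_TRAP in both, but in the first set Tgfb1 was next, with medians of 14.6 in MG_TRAP and 34.7 in PeMP_TRAP, against 0.487 and 0.561 in the second. Smad3 had 0.911 in first-set and 5.36 in second-set Input, and 0.264 and 3.29 in PeMP_TRAP. In SN_input Tgfb2 led the first set at 9.52 and Tgfbr1 the second at 5.35.

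Correlations between members across the 32 tamoxifen libraries are a description, since fractions, depth and set are shared by the points. Tgfb2 and Itgb8 had a Spearman correlation of 0.76 and Itgav and Itgb8 of 0.69, while Tgfb1 and Tgfbr1 had 0.67. The lowest value was that of Tgfb1 with Itgb8, -0.60. Smad2 had 0.57 with Smad7 and with Nrros and lay near 0 with Tgfb1 (0.06), Tgfb2 (-0.02) and Itgb8 (-0.02), while Smad3 was highest with Tgfbr2 (0.45). Among all genes with an average log2 CPM of at least 3, the one most like Tgfb1 was Myl12a (0.89), a myosin light chain; that most like Tgfbr1 was Il6ra (0.90), the interleukin-6 receptor subunit; and that most like Tgfbr2 was Arhgap9 (0.87). For Nrros it was Rhobtb1 (0.87), for Itgav Acaca (0.84), for Tgfb2 the proteoglycan gene Gpc5 (0.89), and for Itgb8 Cbs (0.91), an enzyme of sulphur amino acid metabolism. Smad2 was most like Mplkip (0.85), Smad3 most like Acly (0.78) and Smad7 most like Leo1 (0.78).

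The rest of the pathway was read through 8 lists with 83 other genes, 74 of them tested. In MG_TRAP over Input 17 of the 74 rose, against 4.67% of all genes, and none fell, with a median log2 fold change of 0.09. Of these, 11 belong to the 12 genes of the microglial programme that depends on TGF-beta, whose median was 6.32; they include C1qa (6.84, SE 0.40, adjusted p = 4.2e-16), a complement subunit, and Tmem119 (6.78, SE 0.61). The list consists of microglial marker genes, so its rise goes with the microglial marker sum above. The other member, Mertk, had 2.67 (SE 0.93, adjusted p = 0.0787). Outside that list 6 genes rose, named after their values were seen: the co-receptor Eng (4.43), the integrin subunits Itgb5 (5.34) and Itgb1 (2.48), both partners of alpha-v, the Smad regulators Tgif1 (5.20) and Pmepa1 (2.39), and the GTPase Rhoa (1.99), the smallest rise. None of the 9 tested family ligands, 5 other Smads or 8 general target genes passed the test, which does not show that they were level: the ligands' median was -1.19, and in the first set alone Tgfb3, a further isoform, was at least 7.26-fold lower in MG_TRAP, where it had at most 1 read (4.74-fold without Input library D).

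In PeMP_TRAP over SN_input 16 of the 74 rose and 19 fell, against 6.15% and 26.1% of all genes, so the falls are at the background. The same list of microglial genes again gave 11 of 12, with a median of 3.07, among them Olfml3 (4.06, SE 0.53), and Tgif1 rose by 5.18 (SE 1.85), the largest value, a call lost without G, H, I or J (adjusted p up to 0.0817). Of the genes that fell, 7 were ligands of the family and 5 receptors: Bmpr1b, a bone morphogenetic protein receptor, had 0 reads in all 8 PeMP_TRAP libraries and was at least 4.76-fold lower than SN_input, and Inhba, the activin A subunit, had at most 1 read and was at least 2.58-fold lower. Genes listed at such bounds make fitted medians depend on a prior count: the 74-gene median was -0.67 as fitted and 0 with the 16 genes of this kind at their bounds. Few genes were detected in second-set PeMP_TRAP libraries, as given above, and the part of that in these falls was not tested.

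Between the immunoprecipitates 3 of the 74 rose in PeMP_TRAP and 21 fell, near the 3.17% and 22% of all genes. Itgb5 (1.81, SE 0.43) and C1qa (1.42, SE 0.32) were the largest of the 3, with Pmepa1 (1.09) the other, named after its value was seen. Inha, the inhibin alpha subunit, had 0 reads in every PeMP_TRAP library, at least 1.89-fold lower than in MG_TRAP (1.13-fold without K, its highest MG_TRAP library); Mmp9, a protease that can release TGF-beta, also had none, with MG_TRAP at 0 to 437 reads and under the limit on average. In SN_input over Input 11 rose, against 2.08% of all genes, and none fell, 9 of them in the microglial list, led by C1qa (4.22, SE 0.36) and Siglech (3.91, SE 0.43), a microglial lectin; Pmepa1 (1.31) was the smallest, and its call was lost in 7 of the 8 fits without 1 letter, all but D (adjusted p up to 0.139). All 12 microglial markers rose there too (median 3.69), as did 3 of 7 astrocyte, 3 of 8 oligodendrocyte and 1 of 6 border macrophage markers. The test of unequal enrichment called 22 of the 74, all lower in the synaptosome fraction, 9 of them in the microglial list, with Olfml3 and C1qa the smallest of these differences. Over all genes 10.9% were called lower, and 61 of the 1770 calls were higher. All 12 microglial markers (median -3.22) and 2 of 6 border macrophage markers were called lower as well, and the part of these cells in either comparison was not tested. The Olfml3 call was lost without G, H, J or K (adjusted p up to 0.0634).

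Tamoxifen against control in PeMP_TRAP called 9 of the 74 higher and 3 lower, on 3 libraries each, against 5.56% of all genes in either direction. Map3k7, the TAK1 kinase that relays TGF-beta without Smads, was at least 37.6-fold higher and the integrin subunit Itgb3 at least 10.9-fold higher, with control libraries at 0 to 1 reads. Library D held 93.5% of the summed Map3k7 level, and without it the bounds were 3.65-fold and 6.73-fold; the Itgb3 call was lost in all 6 fits without 1 letter (adjusted p 0.0725 to 0.0965). The latent TGF-beta binding protein Ltbp4 was at least 28.8-fold lower, with tamoxifen libraries at no more than 1 read, and 15.9-fold without library A; its call was lost without F (adjusted p = 0.0765). Id1, a transcriptional inhibitor that answers to the family, was called lower on library A alone, whose 848 reads held 99.8% of the control level; without A there was no bound above 1 and no call (adjusted p = 0.735), and the call was also lost without D, E or F. The other lower gene was the phosphatase Ppm1a (-3.19, SE 0.99), and 5 of the 9 higher genes were in the microglial list. Within MG_TRAP, in either input and in either control enrichment, 0 of the 74 passed. The set difference in synaptosome enrichment called 12 of 75 tested pathway genes lower, against 13.8% of all genes. The interaction of treatment with synaptosome enrichment called 1 of the 74, higher, where 1.24% of all genes passed, and that call was lost in 5 of the 6 fits without 1 letter.

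**Figure D5:**
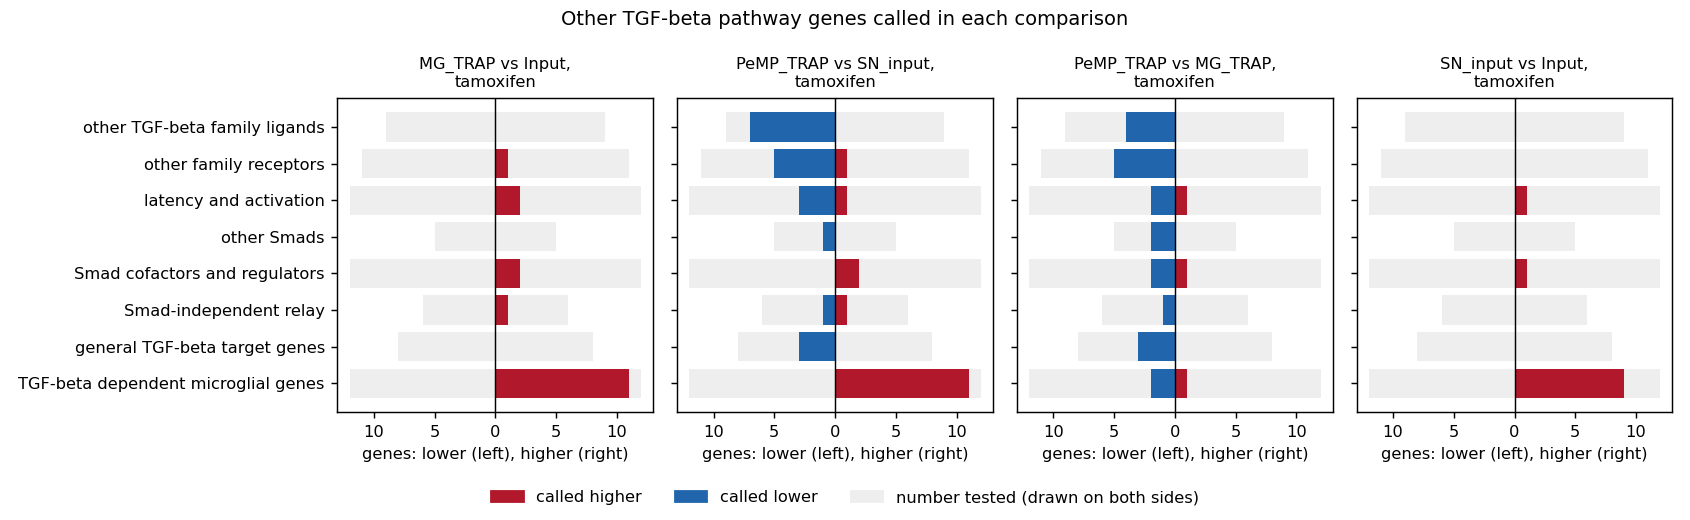
Bars give, for each of 8 lists of other pathway genes (rows) and 4 comparisons (panels), how many genes were called higher (red, right) and lower (blue, left), over grey bars for the number tested, drawn to both sides. The microglial list has 11 of 12 called higher in the first 2 panels, and the blue bars lie in the 2 panels that involve PeMP_TRAP.

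The authors' deposited table covers the first set and gives the same direction for the 3 genes above. Its headers name tamoxifen for the immunoprecipitates but no treatment for the inputs. Control inputs may thus be part of its comparisons, whereas those above used tamoxifen inputs only, and the sizes are not set against each other. In the authors' deposited table Tgfb1 has a log2 fold change of 7.85 in MG_TRAP over Input (FDR 4.82e-06) and 6.14 in PeMP_TRAP over SN_input (FDR 0.000369). The authors' deposited table gives Tgfbr1 3.91 (FDR 0.00189) and 4.14 (FDR 0.00118), and Tgfbr2 6.29 (FDR 0.00077) and 2.71 (FDR 0.125). In the authors' deposited table Nrros misses the threshold in MG_TRAP (4.22, FDR 0.0654), and Tgfb2 is lower in PeMP_TRAP (-5.34, FDR 0.0444). That table has no library H, whose Tgfb2 count is described above. The edgeR fit of the first set alone, also without H, called 0 members lower in PeMP_TRAP over SN_input. The reason for this difference was not tested.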

How the data were processed

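The authors deposited whole-number HTSeq counts of reads per Ensembl gene for each library, made from SMART-Seq v4 cDNA with NEBNext Ultra II libraries per the labels' protocols. The submitters' processing notes name Trimmomatic 0.38, Bowtie2 2.3.5, STAR 2.7.0d, FastQC 0.11.7, HTSeq 0.9.1 and, for the first set, edgeR; the genome build, annotation and strand setting are not given in the sources used here. The authors also deposited a table of the first set with log2 values, a likelihood ratio score and p-values for 3 comparisons, per the file headers, which was read only for the members. The sets list 54146 and 55359 identifiers; the 50714 shared ones were used, and those left out held 0.0232% to 0.795% of a library's reads. The 5 summary lines of each count file were left out. Symbols and coordinates are from GENCODE M21 (GRCm38) and promoters from RefSeq (GRCm38.p6), whose table matched 8 of the 10 members.

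The main test was the quasi-likelihood F test of edgeR 4.0.16 (R 4.3.3) after TMM scaling and filterByExpr (minimum count 10). P-values were adjusted by Benjamini and Hochberg's method over all genes tested, and 0.05 was the threshold. All 10 members passed the filter in every fit. Fractions of tamoxifen mice were compared in 32 libraries with set as a covariate (15710 genes), control comparisons in the 24 first-set libraries (14771 genes), and the difference between sets in 44 libraries (18291 genes). Standard errors were taken from the fold change and its F statistic, and 95% intervals as 1.96 of them. Log2 CPM has a prior count of 2. Where a whole group had at most 3 reads per library, a fold is the other group's mean over the highest limit per library, as a lower bound. Where that group held any reads, the bound is for the reads as observed and does not cover their counting error. Members were named in every comparison; of the pathway lists, the 2 largest and 2 smallest called genes of each comparison were named, and likeness was Spearman's rank correlation over 32 libraries. Alternatives were RLE and total-count scaling, no low-count filter, DESeq2 1.42.0, leaving out each letter, each set alone and a block on the letter. The pipeline was tested on simulated data. Members, lists and tests were chosen with earlier results of these data known. A gene that the rule for named genes gives is not reported here.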

Additional observations from a re-analysis of the deposited data

Results flagged for a closer look

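In the 40 groups of 8 tamoxifen libraries tested (10 genes in 4 fractions), 4 had a library far from the others, where chance flags about 1 in 20. Tgfb2 in PeMP_TRAP had a log2 CPM of 7.14 in library H, against 1.77 in the next. Smad2 in MG_TRAP had 5.96 in library D, against 4.92 in the next. Tgfbr1 in SN_input had 0.13 in library D, against 4.54 in the next, and Smad7 in SN_input had -2.80 in the same library, on 0 reads, against 2.45. Smad2 differed between the sets in its enrichment of PeMP_TRAP over SN_input, with a fitted difference of -11.24 on the log2 scale (SE 2.43, adjusted p = 0.00124); as all second-set PeMP_TRAP libraries were at 0, the size depends on the prior count and is no measure of the fold.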

How the results depend on the processing

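Of the 9 member results that passed, none changed sign under its alternatives. Tgfb1 in MG_TRAP over Input and Smad2 between sets passed in all of them, with log2 fold changes of 5.88 to 8.33 and adjusted p-values of 1e-07 to 0.0278 for Tgfb1 and adjusted p up to 0.037 for Smad2. Tgfbr1 and Tgfbr2 in MG_TRAP over Input were lost only in fits of 1 set alone, with adjusted p over the alternatives of 1.26e-06 to 0.107 and 0.000464 to 0.217. Nrros and Smad7 between the immunoprecipitates were each lost in 7 of 15 alternatives (adjusted p 0.000229 to 0.619 and 0.00152 to 0.53). Of 141 member results that did not pass, 19 passed under at least 1 alternative, and in 172 of 1698 refits an uncalled value changed sign.

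The number of members called moved as follows. In the first set alone it was 1 for MG_TRAP over Input (Tgfb1), where 325 of 12968 genes were called higher, and 0 between the immunoprecipitates. In the second set alone it was 1 for PeMP_TRAP over SN_input (Smad2, lower) and 2 for the difference between enrichments (Tgfbr1 and Smad2, lower). There 6139 and 4508 of 15617 genes were called lower. DESeq2 called 1 for tamoxifen against control in MG_TRAP, 2 in PeMP_TRAP and 1 for the interaction of treatment with synaptosome enrichment. Of all genes it called 875 of 13127, 4109 of 12610 and 1826 of 13127 in these comparisons. Leaving out each letter gave 3 to 3 for MG_TRAP over Input, 2 to 5 for PeMP_TRAP over SN_input (5 without H, where Tgfb2 and Itgb8 passed as lower), 0 to 3 between the immunoprecipitates, 0 to 1 for the difference between enrichments (Smad7, without J), 1 to 2 between sets in the synaptosome fraction, and 0 to 2 for tamoxifen against control in PeMP_TRAP (Tgfb1 and Tgfbr2 without A, Itgb8 without E). Over the same fits the log2 fold change of Tgfb2 between the immunoprecipitates ranged from -4.55 (without H, where it passed but the size depends on the prior count) to 2.47, and that of Smad7 between sets in the synaptosome fraction from -6.77 (without J, where it passed) to 3.83.

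Whether letters pair libraries was not settled: of 48 same-letter pairs 3 correlated above 0.1 (median 0.016), yet 27 correlated best with their own letter, 15 of 18 in the first set and 12 of 30 in the second. The replicate block gave 3 members for MG_TRAP over Input, 4 for PeMP_TRAP over SN_input (2 higher, and Tgfb2 and Itgb8 gained as lower with adjusted p of 0.037 and 0.0489, while Tgfbr2 was lost), 1 between the immunoprecipitates (Smad7, with Nrros lost at an adjusted p of 0.0708), and 0 for SN_input over Input, for the difference between enrichments, for both control enrichments and for both interactions with treatment.

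Over all genes, calls in MG_TRAP over Input ranged from 329 (first set alone) to 2626 (no low-count filter) around 1071, in PeMP_TRAP over SN_input from 372 to 7093 around 5074, between the immunoprecipitates from 0 (first set alone) to 6653 (second alone) around 3952, and in SN_input over Input from 6 to 607 around 400. For the difference between enrichments they ranged from 0 to 4600 around 1770, for tamoxifen against control in PeMP_TRAP from 365 (a letter left out) to 4109 (DESeq2) around 1643, and in MG_TRAP from 0 to 875 around 0. For treatment by synaptosome enrichment the range was 0 to 1826 around 183, and for the set difference in the synaptosome fraction 1192 to 3596 around 2557. DESeq2 called 223 genes in control MG_TRAP over Input, 1275 in control PeMP_TRAP over SN_input, 441 for the set difference and 203 for the treatment interaction in the homogenate, where edgeR called 2 or 0. The cause of these differences was not tested. Other scalings moved the median of all genes by -0.52 (RLE) and -0.32 (total counts) in MG_TRAP over Input, by -0.34 and 0.01 in PeMP_TRAP over SN_input, by -0.53 and -0.73 between the immunoprecipitates, and by -0.70 and -1.05 in SN_input over Input; the called members kept their direction in each. Depth limits first-set PeMP_TRAP, where 3 counts were worth up to 4.9 CPM; in second-set PeMP_TRAP they were worth 0.0991 to 0.154 CPM.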
